A study of Mus musculus with 24 samples.

Results

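Heat shock chaperones are the proteins that cells make in larger amounts when their proteins misfold, and 10 genes of this system were followed in the mouse hippocampus after loss of Tsc1. The members were listed by name: the chaperones and co-chaperones Hspa1a, Hspa1b, Hspa8, Dnajb1, Hsph1, Bag3, Hsp90aa1, Hspb1 and Hspe1, and their transcription factor Hsf1. All 10 were found among the 55385 gene identifiers that were counted, and all 10 had enough counts to be tested in every comparison. RNA came from the hippocampus of 24 adult male and female mice, 4 in each of 6 groups, labelled A to D within a group. Every mouse had both Tsc1 copies flanked by loxP sites and was given tamoxifen. Control mice (Tsc1-Cre-) lacked the Cre transgene and were taken on day 8 after the start of tamoxifen. Tsc1-Cre+ mice carried CreERT2 under the Camk2a promoter, so that Tsc1 was deleted in Camk2a-expressing neurons alone and other hippocampal cells kept it. They were taken untreated on day 4, 6, 8 or 13, or on day 13 after daily rapamycin at 10 mg/kg from day 4. The submitters place the 4 days during epileptogenesis. Libraries held between 28208561 and 126435936 counts (median 55582027). The libraries' numbers in the deposited records fall into series: day 13 mice A and B share a series, and C and D each come from another. A and B are also the deepest libraries of all, with 69971957 and 126435936 counts against 38423852 and 41101425 in C and D. Controls and day 8 mice share their series, and the other groups do not, so that group and series cannot be told apart there.

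HSP70 proteins bind exposed stretches of unfolded proteins and release them in a cycle driven by ATP. J-domain proteins bring the client and start the cycle, and nucleotide exchange factors end it, while HSP90 takes over clients such as kinases and hormone receptors. When unfolded proteins occupy the chaperones, Hsf1 is freed, forms trimers and binds repeats of the letters GAA in alternating orientation in the promoters of chaperone genes, and neurons are known for a weak response of this kind.

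Tsc1, the targeted gene, checked the Cre labels. It stood at 109, 103, 106 and 103 CPM (counts scaled to library size with the factors of edgeR's TMM method) in controls A to D. On day 4 it was 77.3, 79.0, 81.7 and 75.4 CPM, and on day 13 it was 57.4, 59.0, 68.9 and 68.9 CPM. In the rapamycin group it was 66.2, 66.0, 68.1 and 68.9 CPM. Each of the 20 Tsc1-Cre+ mice lay below all 4 controls, so no library went against its Cre label. Tsc1 cannot check the labels of day and rapamycin: day 8 overlapped day 6, and rapamycin overlapped day 13. The log2 fold change against the controls was -0.42 on day 4 and -0.75 on day 13, with edgeR adjusted p of 0.000284 and 0.000636. The two-sided exact permutation p was 0.0286 in each of these, the smallest that 70 arrangements of 4 against 4 can give. In whole hippocampus, fewer cells of a type and less RNA per cell cannot be told apart.

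Upstream sequence was read for the members because several were higher on the same days and Hsf1 is known to bind promoters of chaperone genes. Whether the members share a regulator here was not tested. Promoters of 250 bases before and 50 after the start, from RefSeq on GRCm38.p6, were found for Hspa1a, Hspa1b, Hspb1, Dnajb1, Hsph1, Bag3 and Hspe1, with 2 entries each for Dnajb1 and Hsph1, and the table holds none for Hspa8, Hsp90aa1 and Hsf1. Both strands were searched for GAANNTTC, which reads the same on both strands, and for the longer GAANNTTCNNGAA or its reverse complement TTCNNGAANNTTC, which contain the shorter one. The shorter motif occurs in 7.86% of all 32851 promoters and the longer in 0.603%. Positions are counted from the start of transcription. The 150 bases before the start of Hspa1a (chr17:34972157-34972306, minus strand), Hspa1b (chr17:34959239-34959388, minus strand) and Hspb1 (chr5:135887769-135887918, plus strand) are shown with the matches in capitals.
Hspa1a: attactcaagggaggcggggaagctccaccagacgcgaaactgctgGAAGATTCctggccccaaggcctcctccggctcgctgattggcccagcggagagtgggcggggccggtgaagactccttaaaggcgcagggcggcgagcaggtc
Hspa1b: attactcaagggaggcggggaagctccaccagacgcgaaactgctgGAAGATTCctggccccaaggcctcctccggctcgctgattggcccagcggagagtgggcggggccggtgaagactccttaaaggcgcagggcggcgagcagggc
Hspb1: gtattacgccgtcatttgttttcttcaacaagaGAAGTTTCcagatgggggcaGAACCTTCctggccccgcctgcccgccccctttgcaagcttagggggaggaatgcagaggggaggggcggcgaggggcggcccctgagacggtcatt
Hspa1a and Hspa1b hold 1 match each, beginning 104 bases before the start, and the stretches shown differ at 1 of 150 positions. Hspb1 holds 2 matches, beginning 117 and 97 bases before the start, and 0.344% of all promoters hold 2 or more.

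Shorter stretches are shown for Hspe1 (chr1:55088053-55088082, plus strand), Hsph1 (chr5:149636287-149636309, minus strand) and Bag3 (chr7:128523614-128523632, plus strand), whose matches lie close to or after the start.
Hspe1: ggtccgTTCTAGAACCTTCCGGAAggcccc
Hsph1: tgctgcagaTTCTGGAAAGTTCt
Bag3: ggatgggaccaGAAGTTTC
Hspe1 holds 2 overlapping matches to the longer motif, beginning 89 and 84 bases before the start. In Hsph1 a longer match begins 37 or 16 bases after the start, depending on which of its 2 starts is used. Bag3 holds 1 match to the shorter motif, beginning 43 bases after the start. Neither promoter of Dnajb1 holds either motif in this window. A match is a description of letters, and binding of Hsf1 was not measured.

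The members differ widely in level. Per kilobase of exon and averaged over all 24 mice, Hspa8 stood at 277 CPM per kb (SD 59.1) and Hsp90aa1 at 174 (SD 30.1). Hsph1 followed at 39.9 CPM per kb (SD 12.8), Hspe1 at 16.0 (SD 3.55), Dnajb1 at 8.61 (SD 0.789) and Hsf1 at 4.64 (SD 0.280). Hspb1 at 3.59 CPM per kb (SD 7.53), Bag3 at 2.03 (SD 1.80), Hspa1b at 1.86 (SD 0.444) and Hspa1a at 0.906 (SD 0.197) were the lowest. The means of Hspb1 and Bag3 are carried by day 13 mice. In the controls alone the order of these genes was Hspa1b at 1.81 CPM per kb (SD 0.143), Hspb1 at 1.46 (SD 0.435), Bag3 at 1.33 (SD 0.0382) and Hspa1a at 0.752 (SD 0.172). Stretches of 76 bases that also occur in other genes make up 61.5% of those of Hspa1a, 55.6% of Hspa1b and 46.3% of Hspb1. They make up 42.6% for Hsp90aa1, 32.8% for Hspa8, 14.4% for Hspe1 and 0% for Bag3, Dnajb1, Hsph1 and Hsf1. How reads from such stretches were counted is not given, so the order of levels may depend on it. The plot of levels per kilobase shows 3 of the groups.

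**Figure D1:**
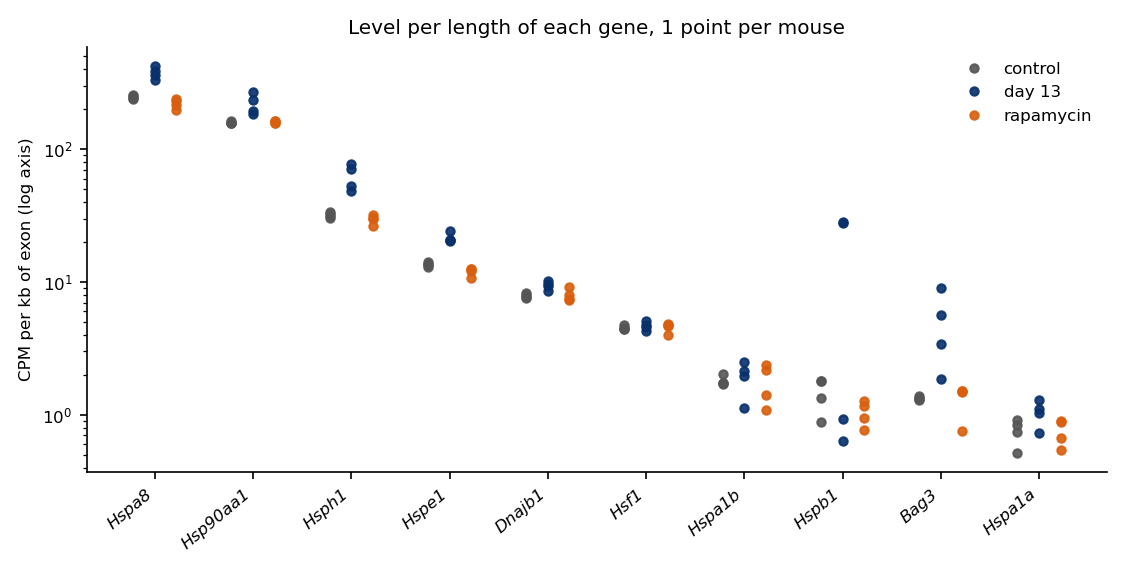
Level of each member in CPM per kilobase of exon (log axis) in control, day 13 and rapamycin mice, 1 point per mouse. Hspa8 and Hsp90aa1 lie highest, and Hspb1 and Bag3 are the most spread on day 13.

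Across the 6 groups, 7 of the 10 members differed by edgeR's F test at an adjusted p under 0.05, against 41.9% of the 27110 genes tested. These were Hspe1, Hspa8, Hsph1, Bag3, Hsp90aa1, Hspb1 and Dnajb1, with edgeR adjusted p from 2.96e-08 for Hspe1 to 0.0331 for Dnajb1. Hspa1a, Hsf1 and Hspa1b did not pass (edgeR adjusted p of 0.158, 0.248 and 0.901). The plot of the members in each mouse shows the values behind these tests. Where all mice of a group lie above or below all of another, this is a description. The share of all genes that part in this way was not counted.

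**Figure D2:**
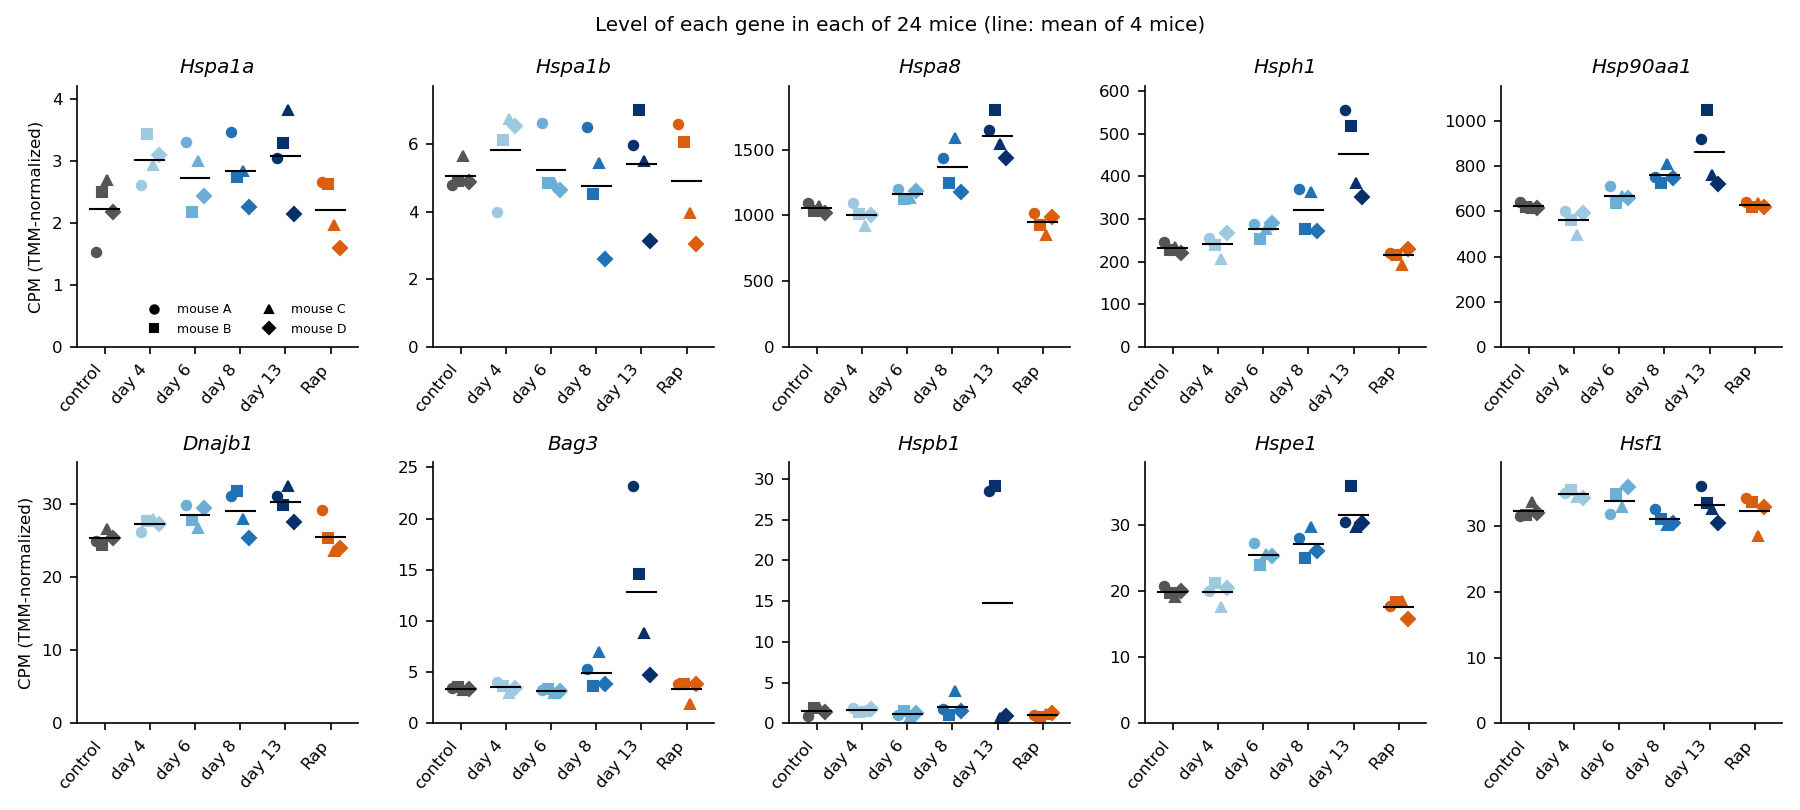
CPM of each member in each of the 24 mice, 1 panel per gene and 1 column of 4 points per group, with the group mean as a line. Hspa8, Hsph1 and Hspe1 are above all controls on day 6, 8 and 13, and Hspb1 is high in day 13 mice A and B alone.

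Hsf1 (ENSMUSG00000022556.11, chr15:76477422-76501913, plus strand) encodes the factor that turns on the heat shock genes. Its activity is set mainly at the protein level, which RNA counts do not show. Hsf1 RNA was 31.6, 31.7, 33.6 and 32.1 CPM in controls A to D and 36.1, 33.6, 32.5 and 30.4 CPM in day 13 mice A to D. These groups overlapped, and over all 24 mice Hsf1 stayed between 28.5 and 36.1 CPM. The log2 fold change on day 13 was 0.02 (95% interval -0.14 to 0.18, edgeR adjusted p = 0.855). On day 4 all 4 mice, at 34.3 to 35.5 CPM, were above the controls, with a log2 fold change of 0.11 (SE 0.04) that did not pass (edgeR adjusted p = 0.181).

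Hspa1a (ENSMUSG00000091971.3, chr17:34969190-34972156) and Hspa1b (ENSMUSG00000090877.3, chr17:34956436-34959238), neighbours on the minus strand, encode the inducible HSP70, the classical product of heat shock. Hspa1a was 1.54, 2.50, 2.704 and 2.18 CPM in controls A to D, and 3.06, 3.30, 3.83 and 2.16 CPM in day 13 mice A to D. Day 13 mice A, B and C were above all controls, and D was within their range. Hspa1b was 4.80, 4.90, 5.66 and 4.88 CPM in the controls and 5.98, 7.02, 5.51 and 3.14 CPM on day 13. Here A and B were above all controls, C was within them and D was below them.

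Neither inducible HSP70 gene passed the test in any of the 8 comparisons on all their mice. On day 13 the log2 fold change was 0.44 for Hspa1a (95% interval -0.05 to 0.94, edgeR adjusted p = 0.160) and 0.08 for Hspa1b (95% interval -0.39 to 0.55, edgeR adjusted p = 0.805). Both intervals include 0, and that of Hspa1a does so narrowly. The day 13 value of Hspa1b depends on the mice: it was -0.24 without A and B (edgeR adjusted p = 0.473), -0.06 without B alone and 0.36 without C and D (edgeR adjusted p = 0.0489). Of the 76-base windows of their transcripts, 61.5% in Hspa1a and 55.6% in Hspa1b also occur in other genes, for the most part in each other. How the deposited counts treat reads from such windows is not given, so the level of both genes and the split between them are uncertain. A predicted gene on the opposite strand, Gm20481, overlaps Hspa1a over 2225 of its 2967 bases and was listed at 0 in all mice. The strand setting of the counts is not given, so whether reads of Hspa1a in this overlap were left out is unknown.

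Hspa8 (ENSMUSG00000015656.17, chr9:40800984-40810087, plus strand) encodes the constitutive HSP70, which folds new proteins and uncoats clathrin vesicles at synapses. It was 1091, 1033, 1071 and 1022 CPM in controls A to D. On day 6 it was 1204, 1122, 1136 and 1182 CPM, and on day 8 it was 1440, 1247, 1590 and 1181 CPM. It reached 1649, 1804, 1544 and 1434 CPM on day 13 and was 1019, 926, 853 and 987 CPM with rapamycin. All mice of day 6, 8 and 13 were above all controls, and all rapamycin mice were below them. Hspa8 rose by a log2 fold change of 0.36 (SE 0.08) on day 8 and 0.59 (SE 0.07) on day 13, with edgeR adjusted p of 0.0189 and 0.00105. The day 8 result missed the threshold, at adjusted p of up to 0.0645, when control B, C or D or day 8 mouse A was left out. Without day 13 mice A and B the day 13 log2 fold change was 0.49, which passed the adjusted p but is under 0.5. Other genes, most of them processed pseudogenes, share 32.8% of the windows of Hspa8. The one that shares most, Gm15459, stayed between 5.25 and 10.8 CPM, which cannot show whether Hspa8 lost shared reads.

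Dnajb1 (ENSMUSG00000005483.10, chr8:83608193-83612653, plus strand) encodes the J-domain protein that hands clients to HSP70. It was 24.9, 24.3, 26.5 and 25.3 CPM in controls A to D and 31.0, 29.8, 32.4 and 27.5 CPM on day 13. All day 13 mice were above all controls, by a small margin. The log2 fold change was 0.24 (SE 0.08), 1.18-fold, with an edgeR adjusted p of 0.0448. That adjusted p was between 0.0623 and 0.131 when any 1 control, day 13 mouse A or C, or both day 13 mice A and B were left out. On day 4, 6 and 8 Dnajb1 did not pass, with log2 fold changes of 0.11, 0.16 and 0.18.

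Hsph1 (ENSMUSG00000029657.15, chr5:149614287-149636376, minus strand) encodes HSP110, a nucleotide exchange factor of HSP70 that also helps it to pull apart aggregates. It was 245, 227, 235 and 219 CPM in controls A to D. On day 4 it was 255, 240, 206 and 268 CPM, and on day 6 it was 287, 253, 276 and 290 CPM. It went on to 371, 276, 364 and 273 CPM on day 8 and 556, 517, 385 and 352 CPM on day 13, and was 220, 216, 193 and 231 CPM with rapamycin. All mice of day 6, 8 and 13 were above all controls, and day 13 mice A and B were the highest. On day 8, A and C were higher than B and D. The log2 fold change was 0.25 (SE 0.05) on day 6, 0.46 (SE 0.10) on day 8 and 0.95 (SE 0.13) on day 13, with edgeR adjusted p of 0.00718, 0.0134 and 0.00156. On day 8 it passed 0.5, at 0.53, when day 8 mouse B or D was left out. Without day 13 mice A and B the log2 fold change was 0.67, and without C and D it was 1.21, and both passed. On day 6 the adjusted p was 0.374 when the contrast was taken from a fit of all 24 mice.

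Bag3 (ENSMUSG00000030847.8, chr7:128523616-128546981, plus strand) encodes another exchange factor of HSP70, which joins it to small heat shock proteins and steers clients to autophagy. It was 3.43, 3.52, 3.29 and 3.37 CPM in controls A to D. On day 8 it was 5.29, 3.65, 6.94 and 3.86 CPM, on day 13 it was 23.2, 14.5, 8.80 and 4.74 CPM, and with rapamycin it was 3.85, 3.87, 1.93 and 3.82 CPM. All day 8 and all day 13 mice were above all controls, with a wide spread: A and C were highest on day 8, and A and B on day 13. The day 13 log2 fold change was 1.90 (SE 0.39), 3.72-fold, with an edgeR adjusted p of 0.00824. Without day 13 mice A and B it was 0.99 (edgeR adjusted p = 0.00962). On day 8 the log2 fold change of 0.52 (SE 0.19) did not pass in edgeR (adjusted p = 0.0914). It passed by DESeq2 (adjusted p = 0.0366) and, in edgeR, without day 8 mouse B (adjusted p = 0.0393), while the other alternatives ran up to 0.289.

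Hsp90aa1 (ENSMUSG00000021270.13, chr12:110690605-110702728, minus strand) encodes the inducible cytosolic HSP90. It was 640, 619, 615 and 617 CPM in controls A to D. On day 4 it was 601, 563, 497 and 593 CPM, on day 8 it was 754, 726, 810 and 751 CPM, and on day 13 it was 923, 1051, 763 and 723 CPM. All day 4 mice were below all controls, and all day 8 and day 13 mice were above them. The log2 fold change was -0.14 (SE 0.06, edgeR adjusted p = 0.200) on day 4, which did not pass. It was 0.27 (SE 0.05) on day 8 and 0.45 (SE 0.10) on day 13, with edgeR adjusted p of 0.00583 and 0.0129, both under the log2 fold change of 0.5 that a call required. Day 13 mice A and B carried more of this rise, and without them the log2 fold change was 0.25 (edgeR adjusted p = 0.0145). Pseudogenes share 42.6% of the windows of Hsp90aa1. Gm12346, which shares most, stayed between 4.13 and 6.76 CPM, and this cannot show whether Hsp90aa1 lost shared reads.

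Hspb1 (ENSMUSG00000004951.10, chr5:135887919-135889563, plus strand) encodes the small heat shock protein HSP25, which holds unfolding proteins and actin filaments and which reactive glia are known to make. It was 0.917, 1.85, 1.86 and 1.38 CPM in controls A to D. On day 8 it was 1.76, 1.04, 3.94 and 1.46 CPM, and on day 13 it was 28.5, 29.1, 0.653 and 0.964 CPM. With rapamycin it was 0.971, 0.788, 1.21 and 1.32 CPM. Day 13 mice A and B were far above every other mouse of the series, while C lay below all controls and D within them, so the groups overlapped. The day 13 log2 fold change was 3.28 (SE 1.06, edgeR adjusted p = 0.0452), and the two-sided exact permutation p was 0.400. The result rests on day 13 mice A and B: without both, the log2 fold change was -0.89 (edgeR adjusted p = 0.0926). Leaving out any 1 control, or A or B, moved the adjusted p to between 0.0951 and 0.112. The pseudogene Hsp25-ps1 shares 46.3% of the windows of Hspb1 and did not exceed 0.123 CPM in any mouse. As the counting of shared reads is not given, this value cannot show whether Hspb1 lost any.

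Hspe1 (ENSMUSG00000073676.4, chr1:55088132-55091307, plus strand) encodes HSP10, the lid of the HSP60 folding chamber. The members are labelled cytosolic, but this protein works in mitochondria. It was 20.7, 19.7, 19.2 and 20.04 CPM in controls A to D and 20.1, 21.2, 17.7 and 20.5 CPM on day 4. It was 27.2, 23.9, 25.7 and 25.2 CPM on day 6, 28.0, 25.0, 29.7 and 26.1 CPM on day 8, and 30.4, 35.8, 29.8 and 30.3 CPM on day 13. With rapamycin it was 17.7, 18.4, 18.5 and 15.9 CPM. Day 4 overlapped the controls, every mouse of day 6, 8 and 13 was above them, and every rapamycin mouse was below them. Hspe1 rose from day 6 on: its log2 fold change was 0.35 (SE 0.06) on day 6, 0.43 (SE 0.07) on day 8 and 0.64 (SE 0.08) on day 13. The edgeR adjusted p was 0.00172, 0.00257 and 0.000897. Its partner Hspd1, which encodes HSP60 and overlaps it over 112 bases on the opposite strand, was 166, 205, 139 and 144 CPM on day 13 against 102, 91.4, 96.2 and 95.7 CPM in the controls. All day 13 mice were above all controls for Hspd1, with a log2 fold change of 0.74 (SE 0.11, edgeR adjusted p = 0.00192).

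Taken by comparison, each group was tested on the 8 mice concerned by the quasi-likelihood test of edgeR, with Benjamini-Hochberg adjustment over all genes tested. Calls required an adjusted p below 0.05 together with a log2 fold change beyond 0.5 in size. The comparisons with the controls share the same 4 control mice, and those with day 13 share the same day 13 mice, so they are not independent. The plot of fold changes sets them side by side.

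**Figure D3:**
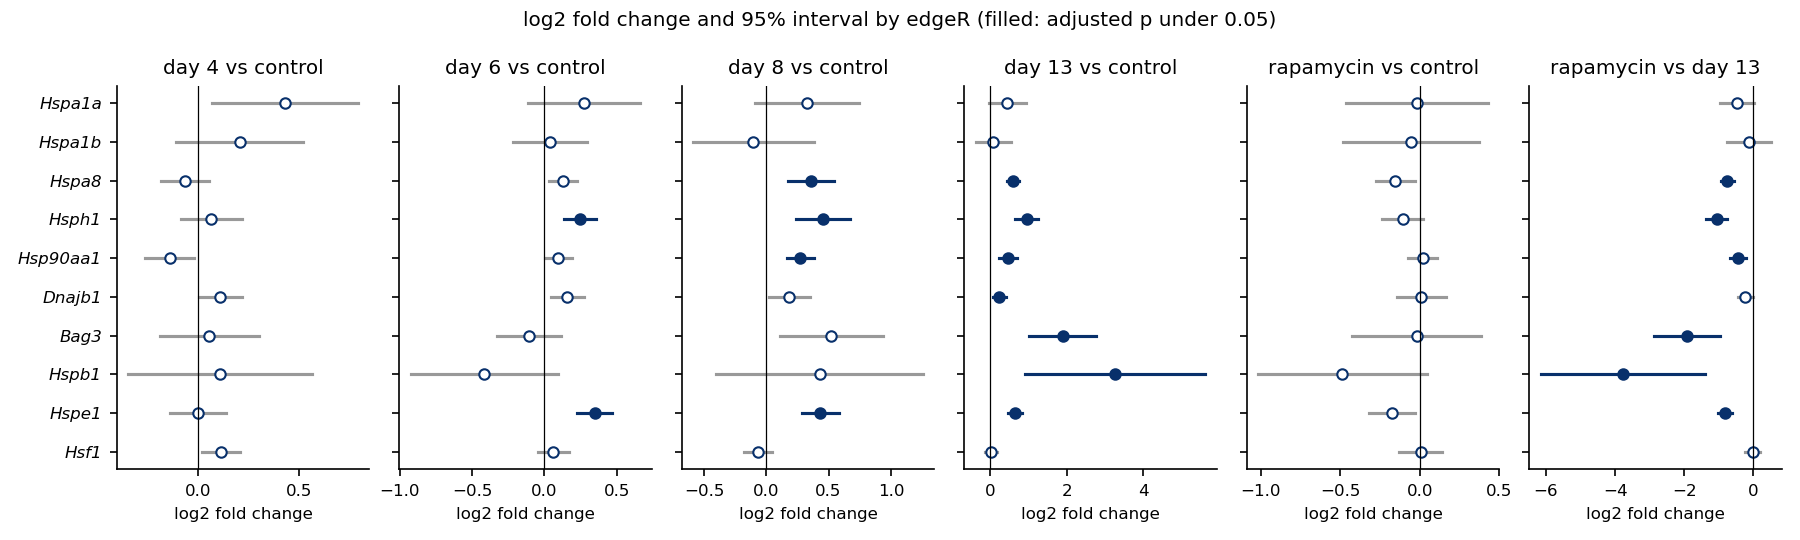
Log2 fold change of each member with its 95% interval in 6 comparisons by edgeR, filled where the adjusted p was under 0.05. Hsph1, Hspa8, Hspe1, Bag3 and Hsp90aa1 lie above 0 on day 8 and 13 and below 0 for rapamycin against day 13, and Hspb1 has the widest intervals.

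On day 4 the members were close to the controls. By edgeR 0 of 10 members passed an adjusted p under 0.05 in either direction, against 4.16% of all genes tested, and 0 were called, against 0.680%. At an unadjusted p under 0.05, 3 members were higher and 1 was lower, beside 4654 of 25308 genes in either direction, and DESeq2 called 0 members and 184 of 16313 genes. The members' median log2 fold change was 0.09, beside -0.00 over all genes.

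Day 6 brought the first members past the test. Hspe1 and Hsph1 rose, 2 of 10 members against 6.24% of genes, and 0 reached the fold change for a call in edgeR, against 0.647%. At an unadjusted p under 0.05, 5 members were higher, beside 6076 of 25057 genes in either direction, and DESeq2 called 0 members and 295 of 18595 genes. Hspa8 and Dnajb1, each with all 4 mice above all controls, missed the threshold in edgeR (adjusted p of 0.0841 and 0.0801). Both passed in DESeq2 (adjusted p of 0.00444 and 0.0333), and Hspa8 also in edgeR without control A (adjusted p = 0.0327). The median log2 fold change was 0.11 over the members and -0.02 over all genes. Glial markers were lower at the same time: 4 of 5 astrocyte markers (median -0.26) and 4 of 6 microglia markers (median -0.28), beside 955 of 25057 genes. Astrocyte markers summed to 5682, 5130, 5336 and 5340 CPM in the controls and 5074, 4721, 5008 and 4880 CPM on day 6, with Slc1a2 the most abundant. Microglia markers summed to 290, 268, 243 and 266 CPM in the controls and 233, 231, 219 and 231 CPM on day 6, with Csf1r the most abundant. All day 6 mice were below all controls for both sums, no marker was at 0, and their part in the members' values was not tested.

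Day 8 added Hspa8 and Hsp90aa1 to Hspe1 and Hsph1. These 4 of 10 members rose at an adjusted p under 0.05, against 8.41% of genes, and edgeR called 0, against 2.15%. At an unadjusted p under 0.05, 6 members were higher, beside 7260 of 25085 genes in either direction. DESeq2 called 1 member, Bag3, and 1187 of 22590 genes. The count called in edgeR was 2 without day 8 mouse B (Hsph1 and Bag3) and 1 without D (Hsph1). With the library series, which day 8 shares with the controls, as a block in the fit, 0 were called, and the log2 fold changes were 0.46 for Hsph1 and 0.43 for Hspe1 (edgeR adjusted p of 0.0202 and 0.00482). The median log2 fold change was 0.34 over the members and -0.03 over all genes. Some glial markers were lower on day 8 too: 2 of 5 for astrocytes (median -0.20) and 2 of 6 for microglia (median -0.13), beside 1221 of 25085 genes. Astrocyte markers summed to 4370, 5000, 4499 and 4807 CPM, below all controls. Microglia markers summed to 258, 231, 260 and 224 CPM, with A and C within the range of the controls and B and D below it. The part of these markers in the members' values was not tested.

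Day 13 had the most. Here 7 of 10 members rose at an adjusted p under 0.05, against 15.6% of genes, and edgeR called 5 of them, against 8.40%: Hspb1, Bag3, Hsph1, Hspe1 and Hspa8. All 10 estimates were above 0, with a median of 0.52 beside -0.04 over all genes. As fold changes these were 9.70 for Hspb1, 3.72 for Bag3, 1.93 for Hsph1 and 1.56 for Hspe1, with Hspa8 just below. Without day 13 mice A and B, 3 members were called, Hspb1 and Hspa8 no longer among them, beside 2504 of 25888 genes in either direction against 4101 of 24920 with all mice. Leaving out 1 mouse at a time gave 4 to 6, with 4 without any 1 control, A or B, and 6 without C or D, when Hsp90aa1 reached a log2 fold change of 0.53.

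2 steps between untreated groups were tested, from day 6 to day 8 and from day 8 to day 13. Between day 6 and day 8, edgeR passed 0 of 10 members in either direction, against 0.418% of genes, and called 0, against 0.229%. At an unadjusted p under 0.05, 4 members were higher on day 8 and 1 was lower, beside 4264 of 24871 genes in either direction. DESeq2 called 1 member, Bag3 (log2 fold change 0.62, adjusted p = 0.0330), and 310 of 18524 genes. All 4 day 8 mice were above all day 6 mice for Bag3 and for Hsp90aa1. Between day 8 and day 13, edgeR passed 0 members and called 0, against 0% of the 24747 genes. There 4 members were higher at an unadjusted p under 0.05, beside 3479 genes in either direction, and DESeq2 called 1 member, Bag3 (log2 fold change 1.37, adjusted p = 0.0408), and 238 of 22359 genes. Taking the contrast from the fit of all 24 mice, edgeR called 2 members and 1343 of 27110 genes, and without day 13 mice C and D it called 3 members and 2676 of 26159 genes. Leaving out A and B instead, it called 2 of 25767 genes. The log2 fold change then turned from 2.84 to -1.33 for Hspb1 and from 0.17 to -0.03 for Hsp90aa1 (edgeR adjusted p of 0.558 and 0.934).

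The rapamycin mice, taken on day 13, were closer to the controls, which were taken on day 8, than to the untreated mice of day 13. Against the controls, edgeR passed 0 of 10 members in either direction, against 3.57% of genes, and called 0, against 1.41%. At an unadjusted p under 0.05, 2 members were lower, Hspa8 and Hspe1, beside 4525 of 25006 genes in either direction, and DESeq2 called 0 members and 450 of 19312 genes. All 4 rapamycin mice were below all controls for both, with log2 fold changes of -0.16 (SE 0.06) and -0.17 (SE 0.07) and edgeR adjusted p of 0.161 and 0.178. The members' median was -0.04 beside 0.01 over all genes.

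Against untreated day 13 mice, 6 of 10 members were lower with rapamycin at an adjusted p under 0.05, against 17.7% of genes, and edgeR called 5, against 11.2%. The called genes were Hspb1, Bag3, Hsph1, Hspe1 and Hspa8, with Hsp90aa1 the sixth below the threshold. Hsph1 was 2.09-fold lower (log2 fold change -1.06, SE 0.14, edgeR adjusted p = 0.000819) and Hspe1 1.78-fold lower (log2 fold change -0.83, SE 0.09, edgeR adjusted p = 0.000483). Bag3 was 3.79-fold lower (log2 fold change -1.92, SE 0.43, edgeR adjusted p = 0.00867) and Hspa8 1.69-fold lower (log2 fold change -0.75, SE 0.09, edgeR adjusted p = 0.000553). With day 13 mice A and B left out, the log2 fold change was -1.005 for Bag3 (edgeR adjusted p = 0.0307), -0.78 for Hsph1 and -0.23 for Hsp90aa1, all passing. For Hsph1, Hspe1, Bag3, Hspa8 and Hsp90aa1, all rapamycin mice were below all day 13 mice, and how many of all genes did so was not counted. Hspb1 had a log2 fold change of -3.78 (SE 1.07, edgeR adjusted p = 0.0237), with groups that overlapped and an exact permutation p of 0.400. Without day 13 mice A and B that of Hspb1 was 0.40 (edgeR adjusted p = 0.400). Leaving out A, B or any 1 rapamycin mouse put its adjusted p between 0.0512 and 0.0686. Marker lists were lower in this comparison as well by edgeR, beside 4287 of 24274 genes. These were 6 of 7 reactive astrocyte markers (median -2.58) and 6 of 7 immediate early genes (median -2.07), both described below. So were 4 of 6 microglia markers (median -0.47) and 3 of 4 endothelial markers (median -0.85). Of 5 astrocyte markers, 2 were lower and 1 was higher. The part of these lists in the members' values was not tested. No Tsc1-Cre- mice were given rapamycin, so its effect without Tsc1 deletion was not measured.

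**Figure D4:**
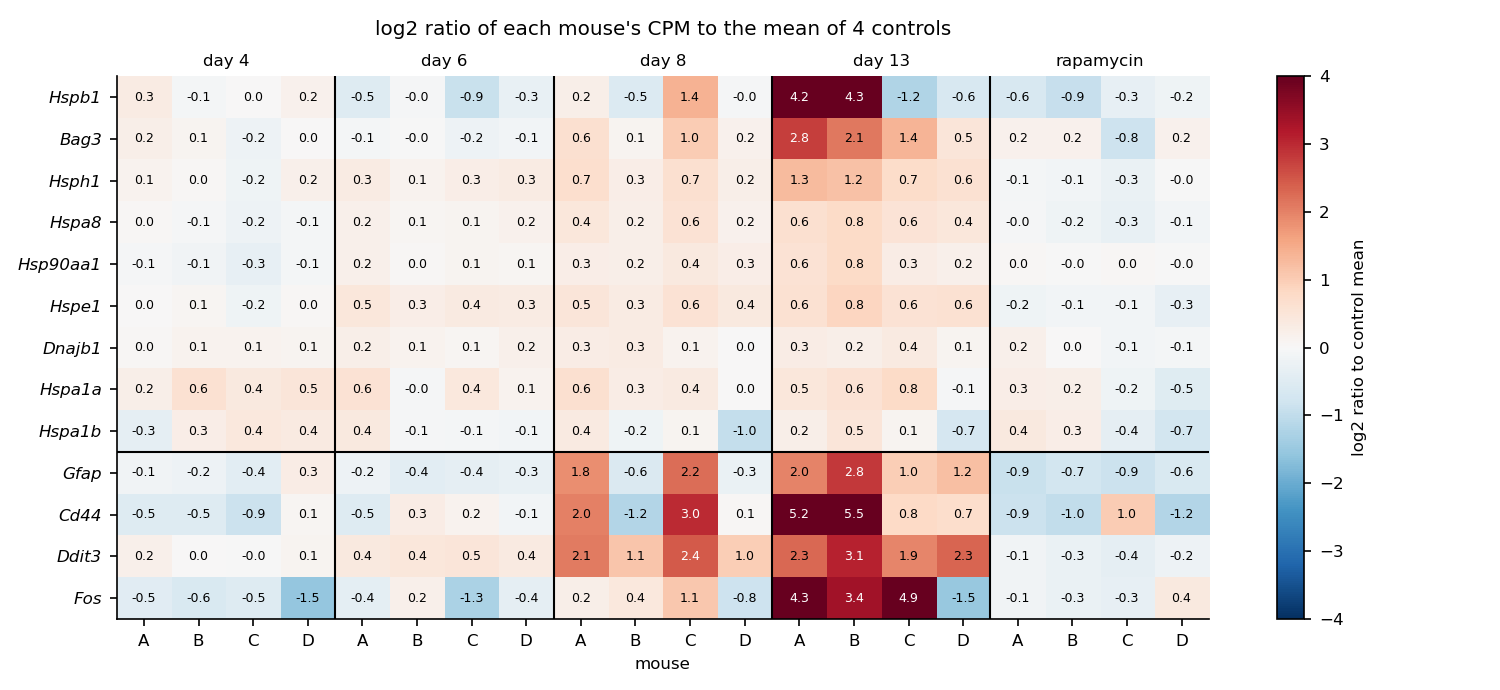
Log2 ratio of the CPM of 9 members, Gfap, Cd44, Ddit3 and Fos in each Tsc1-Cre+ mouse to the mean of the 4 controls, as colour. Day 13 mice A and B have the highest values for Hspb1, Bag3, Hsph1 and Hsp90aa1, and the rapamycin mice are mostly near 0 or below.

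Mice within a group were not alike. On day 8 the 9 chaperone genes summed to 2641, 2318, 2840 and 2266 CPM in A to D, and on day 13 to 3250, 3493, 2773 and 2578 CPM. The controls summed to 2032, 1935, 1980 and 1916 CPM, and the rapamycin mice to 1943, 1818, 1736 and 1888 CPM. Hspa8, Hsp90aa1 and Hsph1 make up most of these sums, at 1091, 640 and 245 CPM in control A. The sums therefore say little of the members with low counts. On day 6, 8 of the 10 members had estimates above 0 and 2 below, Hspb1 (-0.42) and Bag3 (-0.11). Day 8 mice A and C and day 13 mice A and B held the highest sums of their groups, and all mice of both groups were above all controls.

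Markers of reactive astrocytes are given beside these sums. The 7 genes of that list (Gfap, Vim, Serpina3n, Cd44, Lcn2, Timp1 and Osmr) summed to 221, 278, 245 and 259 CPM in controls A to D. They summed to 851, 186, 1159 and 226 CPM on day 8 and to 1223, 2269, 491 and 565 CPM on day 13, with Gfap the most abundant gene and no marker at 0 in any mouse. The mice with the highest sums were again A and C on day 8 and A and B on day 13. Day 8 mice B and D, with chaperone sums above all controls, had marker sums within or below those of the controls. On day 6 the chaperones summed to 2278, 2075, 2144 and 2198 CPM, above all controls, and the markers to 224, 202, 214 and 219 CPM, with A within the range of the controls and B, C and D below it. Gfap makes up most of the marker sum, and of the 7 markers Gfap was lower and Serpina3n higher on day 6 by edgeR. In day 8 mice B and D Serpina3n was above all controls too, at 31.4 and 32.7 CPM against 19.9 to 26.5 CPM. All 7 of 7 markers rose on day 13 by edgeR, against 15.6% of all genes, with a median log2 fold change of 2.15. The largest were Cd44 (4.38), Serpina3n (2.84), Vim (2.29) and Osmr (2.15), and Gfap had 1.91. Cd44 was, like Hspb1, far higher in A and B, with 118, 151, 5.62 and 5.32 CPM in day 13 mice A to D. The controls had 2.11 to 4.70 CPM, so for Cd44, other than for Hspb1, C and D were also above all controls. With rapamycin the 7 markers summed to 160, 174, 170 and 178 CPM, below all controls, but only Gfap passed as lower, Lcn2 passed as higher, and the list's median was -0.05. The part of glial change in the members' RNA was not tested.

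Immediate early genes, which neurons switch on with firing, were uneven on day 13 as well. The 7 genes of this list summed to 190, 233, 237 and 181 CPM in the controls and to 782, 513, 1212 and 120 CPM in day 13 mice A to D, with Arc the most abundant and none at 0. Mice A, B and C were above all controls and D was below them, so the order of mice differs from that of Hspb1. Hspa1a also had A, B and C above all controls on day 13, with C highest and D lowest, but its D was within the range of the controls. By edgeR 4 of 7 rose on day 13, against 15.6% of all genes. Among them Fos was at 102, 51.9, 150 and 1.78 CPM in mice A to D (log2 fold change 3.89, SE 0.93, edgeR adjusted p = 0.0145). Fosb (2.89) and Junb (2.16) passed as well, while Npas4 (1.55) and Arc (1.36) did not. Against the controls, 3 of 7 were lower on day 4 (Arc, Nr4a1 and Npas4, list median -0.43), beside 394 of 25308 genes. On day 6, 2 of 7 were lower (Fosb and Npas4), beside 955 of 25057 genes, and on day 8, 0 passed. With rapamycin, 2 of 7 were lower (Arc and Npas4), beside 578 of 25006 genes. Their part in the members' values was not tested.

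Lists of neighbouring chaperone genes put the 10 members in context, and over all genes 15.6% rose on day 13, 8.41% on day 8 and 6.24% on day 6. Of the mitochondrial chaperones, 6 of 6 rose on day 13 (median log2 fold change 0.56, beside -0.04 over all genes), led by Hspa9, the mitochondrial HSP70, with 1.32 (SE 0.17, edgeR adjusted p = 0.00106). Grpel1 and Dnaja3, co-factors of Hspa9, had 0.56 (SE 0.10) and 0.55 (SE 0.12) and passed as well. Subunits of the CCT chaperonin, which folds actin and tubulin, rose in 8 of 8 cases on day 13 (median 0.46), in 7 of 8 on day 8 and in 6 of 8 on day 6. Among them Cct8 had 0.57 (SE 0.10, edgeR adjusted p = 0.00355) on day 13, followed by Cct6a (0.52), Cct4 (0.52) and the most abundant, Cct5 (0.49). These lists moved in all their members, while the changes per gene stayed under 2-fold except for Hspa9.

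Of HSP90 and its co-chaperones, 10 of 13 rose on day 13 (median 0.40), 7 on day 8 and 5 on day 6. The constitutive Hsp90ab1 was 1179, 1131, 998 and 1100 CPM in day 13 mice A to D against 889, 824, 817 and 768 CPM in the controls. All day 13 mice were above all controls, with a log2 fold change of 0.40 (SE 0.07, edgeR adjusted p = 0.00494). Cacybp, which binds HSP90 and ubiquitin ligases, had 0.62 (SE 0.08, edgeR adjusted p = 0.00115). Fkbp5, a co-chaperone of steroid receptors, was higher on day 4 (0.45, SE 0.06, edgeR adjusted p = 0.00214), on day 13 (0.60, SE 0.11, edgeR adjusted p = 0.00433) and with rapamycin (0.62, SE 0.06, edgeR adjusted p = 0.000381). It was the 1 gene of this list that passed on day 4 and in the comparison of rapamycin with the controls.

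J-domain co-chaperones rose in 8 of 11 cases on day 13 and fell in 1 (median 0.23), with Dnajb5, a close relative of Dnajb1, at 1.32 (SE 0.19, edgeR adjusted p = 0.00191) and Dnajc2 at 0.58. The most abundant, Dnajc6, which acts with Hspa8 in uncoating clathrin, did not pass (log2 fold change 0.00, edgeR adjusted p = 0.965). Of the other HSP70 family genes, 3 of 8 rose (median -0.07), among them Hspa4, a relative of Hsph1, at 0.68 (SE 0.09, edgeR adjusted p = 0.00125), and Hspa14 at 0.60. The most abundant of that list, Hspa12a, did not pass (-0.25, SE 0.23, edgeR adjusted p = 0.453). BAG proteins and other co-factors of HSP70 rose in 4 of 8 cases (median 0.27), with St13 at 0.24 (SE 0.07, edgeR adjusted p = 0.0310). Of these 3 lists, 0 genes passed in the comparison of rapamycin with the controls by edgeR, against 3.57% of all genes in either direction. For lists of 8 or 11 genes, 0 is near that share.

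Small heat shock proteins other than Hspb1 were tested in 5 of 6 cases on day 13, Hspb7 having too few counts, and 0 passed in edgeR (median 0.66). Hspb8, a partner of Bag3, was 21.9, 29.1, 10.2 and 10.9 CPM in day 13 mice A to D against 6.68, 13.4, 8.68 and 7.59 CPM in the controls. A and B were the highest, and C and D were within the range of the controls (log2 fold change 0.96, SE 0.34, edgeR adjusted p = 0.0641). Hspb6 showed 5.18, 4.81, 1.65 and 2.10 CPM on day 13, also with A and B highest. Hspb8 and Hspb6 are named after their values were seen. Cryab, the most abundant of the list, did not pass on day 13 (-0.19, SE 0.19, edgeR adjusted p = 0.491) and was lower with rapamycin than in the controls (-0.76, SE 0.16, edgeR adjusted p = 0.0187).

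Other heat shock factors moved in opposite directions. Hsf4 fell by 1.11 on the log2 scale on day 13 (SE 0.14, edgeR adjusted p = 0.00103), after it fell by 0.68 on day 8 (SE 0.13, edgeR adjusted p = 0.00698). Hsbp1, which binds Hsf1 trimers and dampens them, rose by 0.61 (SE 0.07, edgeR adjusted p = 0.000664) on day 13, and Hsf2 rose by 0.35 (SE 0.07, edgeR adjusted p = 0.00590). The Hsf1 interval given earlier lies below these rises.

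Other stress programs were read beside the members, and their difference from the members was not tested. Of the 7 genes of the integrated stress response, the program that follows phosphorylation of eIF2 alpha, 7 rose on day 13 with a median of 2.52, and 6 rose on day 6 and day 8. Atf3, Trib3, Chac1 and Sesn2 had log2 fold changes of 4.89 (SE 0.76), 4.76 (SE 0.54), 4.09 (SE 0.34) and 2.52 (SE 0.18) on day 13, with edgeR adjusted p of 0.00241, 0.000661, 0.000230 and 0.000125. The most abundant, Asns, had 2.14 (SE 0.15, edgeR adjusted p = 0.000122). Chaperones of the endoplasmic reticulum rose in 3 of 10 cases on day 13 (median 0.19), with Sdf2l1 at 0.85 (SE 0.16, edgeR adjusted p = 0.00504) and Dnajb11 at 0.62. With rapamycin, 5 of 10 of them were lower than in the controls, against 578 of 25006 genes, among them Calr, the most abundant, at -0.48 (SE 0.06, edgeR adjusted p = 0.00145). The plot of lists on day 13 shows each gene of these lists.

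**Figure D5:**
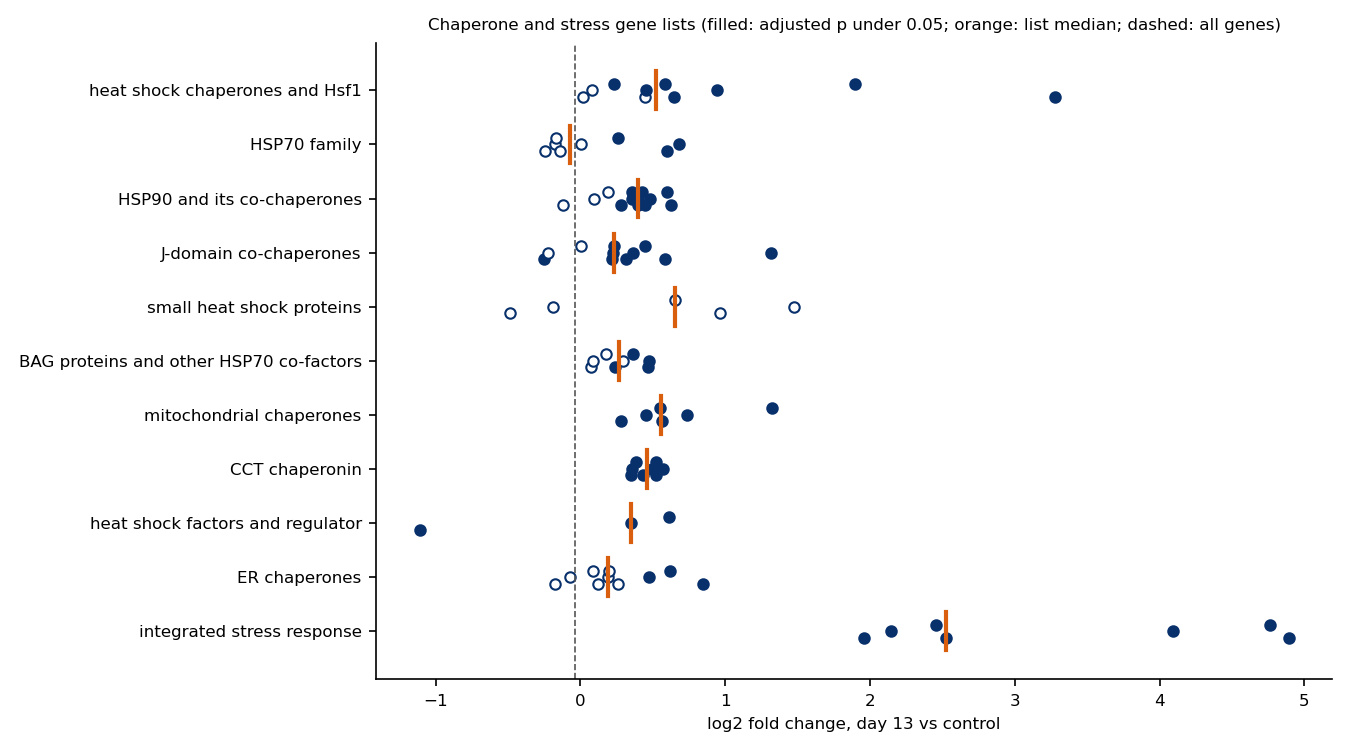
Log2 fold change on day 13 against the controls for each tested gene of the members and of the chaperone and stress lists, filled where edgeR's adjusted p was under 0.05, with list medians as bars. The integrated stress response lies highest, with a median of 2.52, and the other HSP70 family genes have a median of -0.07.

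Genes most like the members were looked up among 13909 protein-coding genes with a mean of at least 1 CPM, by Pearson's r of log2 CPM over the 24 mice, as a description. Closest to Hspb1 were S1pr3 (r = 0.953), Clcf1 (r = 0.948), Tll1 (r = 0.947), Sphk1 (r = 0.942) and Tmbim1 (r = 0.936). S1pr3 encodes a receptor for sphingosine 1-phosphate and Sphk1 the kinase that makes this lipid. Closest to Hsph1 were Vegfa (r = 0.968), Tspan5 (r = 0.966), Rbbp7 (r = 0.965), Blnk (r = 0.963) and Stk40 (r = 0.962). The inducible HSP70 genes had no gene as close: the highest were Adgrb1 for Hspa1a (r = 0.792), followed by Irf2bpl, Mier2, Acp7 and Egln2, and Zgpat for Hspa1b (r = 0.773), followed by Ajap1, Sin3b, Krt73 and Rbfox2. The highest values of Hspb1 are those of day 13 mice A and B.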

How the data were processed

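The counts are whole numbers per gene that the authors deposited: per the submitters' notes, reads were trimmed with cutadapt 1.16.5, aligned to mm10 with STAR 2.7.2b and counted with featureCounts 1.6.4. Neither the strand setting nor what was done with multi-mapping reads is given. Even numbers made up 62.5% to 65.7% of the counts from 1 to 20, so both mates of a pair may have been counted. Of 55385 gene identifiers, 44657 had at least 1 count, and 55144 were found in GENCODE M21, 54487 of them with the same version. Depth ranged from 28208561 to 126435936 (median 55582027).

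Tests used edgeR 4.0.16 in R 4.3.3: the quasi-likelihood test on the 8 mice of a comparison, with its filter on low counts, TMM factors and Benjamini-Hochberg adjusted p over the genes tested. DESeq2 1.42.0, size factors from DESeq2 within edgeR, 1 edgeR fit for the 24 mice, no filter, no minimum fold change, a block for the replicate letter, a block for the number series on day 8 and each mouse left out were the alternatives. Fits without day 13 mice A and B, without C and D, and the block for Tsc1 were added after the data were seen. Exact permutation tests over 70 arrangements were two-sided. With DESeq2 size factors, 300 of 302 passing results of list genes still passed and 0 changed sign.

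Members and lists were chosen with earlier results of these data known. Named were all members and Tsc1, up to 4 genes per list with the largest log2 fold change on day 13 among those called in any comparison with control, the most abundant gene per list, and the 5 protein-coding genes with a mean of at least 1 CPM and the highest Pearson r for Hspa1a, Hspa1b, Hspb1 and Hsph1. Hspb8, Hspb6, Hsf2 and Ddit3 were named in addition. Promoter sequence is from RefSeq on GRCm38.p6.

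Of the marker lists whose day 13 counts are not given with the members, all but 1 are given here, as genes passing on day 13 by edgeR. Higher were 1 of 5 for excitatory neurons, 1 of 6 for microglia, 1 of 3 for activated microglia and 1 of 4 for endothelial cells. For astrocytes 1 of 5 was lower. For GABAergic neurons 0 of 3 passed, for mural cells 0 of 3 and for choroid plexus 0 of 5. Over all genes, 3879 of 24920 were higher and 2817 were lower. Results for some genes are left out of this report.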

Additional observations from a re-analysis of the deposited data

Results flagged for a closer look

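Dixon's ratio, the gap of the most distant mouse over the range of its group of 4, was above its critical value at the 5% level in 5 of 66 groups of 4 mice examined, where chance gives about 1 in 20. Hspa1b was high in control C (ratio 0.885, 5.66 CPM) and in day 6 mouse A (0.897, 6.63 CPM). Hsp90aa1 was high in control A (0.843, 640 CPM against 615 to 619 CPM in the others). Bag3 was low in rapamycin mouse C (0.973, 1.93 CPM against 3.82 to 3.87 CPM). Hspe1 was high in day 13 mouse B (0.896, 35.8 CPM against 29.8 to 30.4 CPM). Hspb1 on day 13, with A and B together far above C and D, has no single distant mouse. All mice were kept.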

How the results depend on the processing

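Counts of called members differed from edgeR on the 8 mice with both thresholds as follows. With no minimum fold change, 2 members instead of 0 counted on day 6, 4 instead of 0 on day 8, 7 instead of 5 on day 13 and 6 instead of 5 for rapamycin against day 13. DESeq2 called 1 member instead of 0 on day 8, 1 between day 6 and day 8 and 1 between day 8 and day 13, Bag3 each time. For day 13 against day 8, edgeR on all 24 mice called 2, and edgeR without day 13 mice C and D called 3. Without day 13 mice A and B, 3 instead of 5 members were called against the controls and 4 instead of 5 for rapamycin against day 13, and without C and D 6 were called in both. Over all genes, 4101 of 24920 were called on day 13 and 5123 of 24274 for rapamycin against day 13 with all 8 mice. This was 2504 of 25888 and 3328 of 25226 without A and B, and 7771 of 26506 and 8159 of 26143 without C and D. Leaving out 1 mouse at a time gave 0 to 2 on day 8, 4 to 6 on day 13 and 4 to 6 for rapamycin against day 13, and 0 in every other comparison. Hspb1 changed sign without day 13 mice A and B, to a log2 fold change of -0.89 against the controls and 0.40 for rapamycin against day 13. Several estimates that did not pass also changed sign, such as Hspa1b on day 13, with -0.24 without A and B. Over single mice left out, the day 13 log2 fold change ranged from 2.74 to 3.70 for Hspb1, 1.45 to 2.17 for Bag3, 0.83 to 1.05 for Hsph1, 0.59 to 0.70 for Hspe1, 0.54 to 0.64 for Hspa8, 0.36 to 0.53 for Hsp90aa1 and 0.22 to 0.27 for Dnajb1. With the replicate letter as a block, Hspb1 had 1.99 on day 13 (edgeR adjusted p = 0.278) and Dnajb1 missed the threshold on day 13 (edgeR adjusted p = 0.0823), and 4 members were called on day 13 and for rapamycin against day 13, beside 3546 and 4531 of all genes. In the latter, Hspb1 missed the threshold with this block (edgeR adjusted p = 0.180). Mice with the same letter are not the same animal, and no comparison had all 4 correlations between mice of the same letter above 0.1 (range -0.287 to 0.198), so this pairing has no ground in the values. Day 13 mice A and B share a number series, are the deepest libraries and differ from C and D, and the part of either in the results was not tested. Each group has 4 mice, the sex of each mouse was not used, and all groups but day 8 come from other number series than the controls. In whole tissue, RNA of neurons that lost Tsc1 is mixed with that of other cells.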

Other observations

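Ddit3, of the integrated stress response, was 49.3, 25.5, 64.3 and 23.6 CPM in day 8 mice A to D and 58.4, 99.6, 45.2 and 59.6 CPM on day 13, against 10.6 to 13.2 CPM in the controls. All mice of both groups were above all controls. Choroid plexus markers summed to between 37.4 and 1643 CPM over the 24 mice, with Ttr the most abundant. Excitatory neuron markers summed to between 3304 and 4847 CPM and GABAergic neuron markers to between 286 and 427 CPM. Slc17a7, which encodes a vesicular glutamate transporter, had a log2 fold change of 0.73 on day 13 (edgeR adjusted p = 0.000508). The other 4 excitatory neuron markers did not pass, and the list's median was -0.10. Gja1, the astrocyte connexin, had -0.93 (edgeR adjusted p = 0.0446), while the other 4 astrocyte markers did not pass, among them Aldh1l1 at 0.35 and Aqp4 at 0.00, and the list's median was -0.19. With rapamycin, against the controls, 5 of 6 microglia markers, 2 of 4 endothelial markers, 2 of 3 mural cell markers and 1 of 5 astrocyte markers (Aqp4) were lower in edgeR, with medians of -0.44, -0.45, -0.28 and -0.18, beside 578 of 25006 genes.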
